A study of Mus musculus with 6 samples.

Results

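The 42 genes described here build and polarise an epithelial sheet such as the wall of a thyroid follicle. They comprise 3 genes of adherens junctions and surface adhesion, 8 claudins, 7 other tight junction genes, 6 genes of apical-basal polarity, 5 desmosome genes, 6 keratins, 5 regulators of epithelial transcription and splicing, and 2 inhibitors of membrane serine proteases. They were chosen by name from the 21878 genes of the count table, 40 under their own symbol and *Patj* and *Pals1* under the older symbols *Inadl* and *Mpp5*, and all 42 were among the 14143 genes with enough counts to be tested.

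Thyroid follicles are closed sacs of a single layer of polarised cells that store thyroglobulin in the lumen and take up iodide from the blood side. E-cadherin holds neighbouring cells together at adherens junctions, claudins and occludin seal the space between them at tight junctions, and desmosomes tie the keratin filaments of adjacent cells to each other. Polarity complexes keep the apical face, with its microvilli, apart from the basal face. Simple epithelia such as this build their filaments from keratins 7, 8, 18 and 19, whereas keratins 5 and 14 belong to the basal layer of stratified epithelia.

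RNA was sequenced from whole thyroid glands of female mice aged 12 weeks, 3 in each group. *Thy-Tet1*-/- mice carried floxed *Tet1* alleles and Cre recombinase active in thyroid follicular cells, so that the other cells of the gland were not targeted, and *Thy-Tet1*+/+ mice were their wild-type littermates. TET1 oxidises methylated cytosine in DNA. The comparison asks which genes of the gland differ in level when follicular cells lose *Tet1*. The libraries held between 8867683 and 19950898 counts, the fewest in *Thy-Tet1*+/+ replicate 1. Levels are given in CPM, counts scaled to library size after TMM scaling of the library totals. A floor of 3 counts, for counting error only, corresponded to 0.150 to 0.338 CPM by library totals without that scaling. Thyroglobulin (*Tg*) alone took 24.0% to 29.4% of the counts of the control libraries and 21.2% to 24.0% of the others. The deposited protocol speaks of retinas, but *Tg* and *Pax8* were abundant in all 6 libraries, as in thyroid tissue.

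The RNA count of the targeted gene went against the labels. *Tet1* stood at 5.69, 3.80 and 3.44 CPM in the *Thy-Tet1*+/+ libraries and at 9.37, 9.60 and 12.2 CPM in the libraries labelled *Thy-Tet1*-/-, a log2 fold change of 1.28 ± 0.27 (SE; adjusted p = 0.101 in edgeR's quasi-likelihood test). The paper determined genotypes by PCR of tail DNA. It reported less TET1 protein in *Thy-Tet1*-/- thyroid tissue, by staining and western blot, and less hydroxymethylated cytosine. It does not state that the same glands were sequenced. The count of the whole gene does not separate the floxed exons from the rest of the transcript, so it cannot show whether those exons were lost. Every direction given here is therefore that of the libraries labelled *Thy-Tet1*-/- relative to *Thy-Tet1*+/+.

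As a group the 42 genes were slightly lower in the libraries labelled *Thy-Tet1*-/-. The simple-epithelial keratins *Krt7*, *Krt8* and *Krt19*, E-cadherin (*Cdh1*) and ezrin (*Ezr*) were lower by 1.55-fold to 2.26-fold, and the transcription factor gene *Ovol2* was 2.82-fold higher. The claudins, the other tight junction genes and the desmosome genes held no gene past the limits. By the limits in the study's legend, more than a 1.5-fold difference together with an unadjusted p under 0.05, 1 of 42 genes (2.38%) was higher and 5 (11.9%) were lower, where the same limits took 5.54% and 3.66% of all tested genes, or 9.20% in either direction against 14.3% of the 42. An unadjusted p under 0.05 was reached by 12 genes (28.6%, 2 higher and 10 lower) against 18.9% of all genes. None of the 42 had an adjusted p under 0.05 in edgeR, a mark passed by 0.113% of all genes, and the lowest was 0.0805 for *Ovol2*. The Wald test of DESeq2 gave an adjusted p under 0.05 for 7 of the 42 (16.7%: *Cdh1*, *Krt7*, *Krt8*, *Krt19*, *Ovol2*, *Esrp1* and *Spint2*) against 9.54% of all genes.

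The median log2 fold change of the 42 genes was -0.19, beside 0.00 over all tested genes, with 16 genes above 0 and 26 below. The CPM values of the groups did not overlap for 12 of the 42 (28.6%), 2 higher and 10 lower, a share near that of all tested genes (26.8%, made up of 12.5% higher and 14.3% lower). With 3 libraries against 3, an exact permutation test of a single gene cannot give a p below 0.10. The summed level of the 42 genes was 6082, 7476 and 6082 CPM in the control libraries and 4932, 5146 and 5134 CPM in the others. These sums did not overlap, but that separation depends on the TMM scaling. Its factors were 0.951, 0.938 and 0.925 in the control libraries and 1.07, 1.02 and 1.11 in the others. With library totals alone the median log2 fold change of the 42 genes was -0.0042, beside 0.19 over all tested genes. Exons of 14 of the 42 genes overlap another annotated gene, in each case on the opposite strand. Whether counting used strand, and how reads shared by similar keratin genes and their processed copies were assigned, was not stated. In whole glands, fewer cells of a type and less RNA per cell cannot be told apart.

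**Figure D1:**
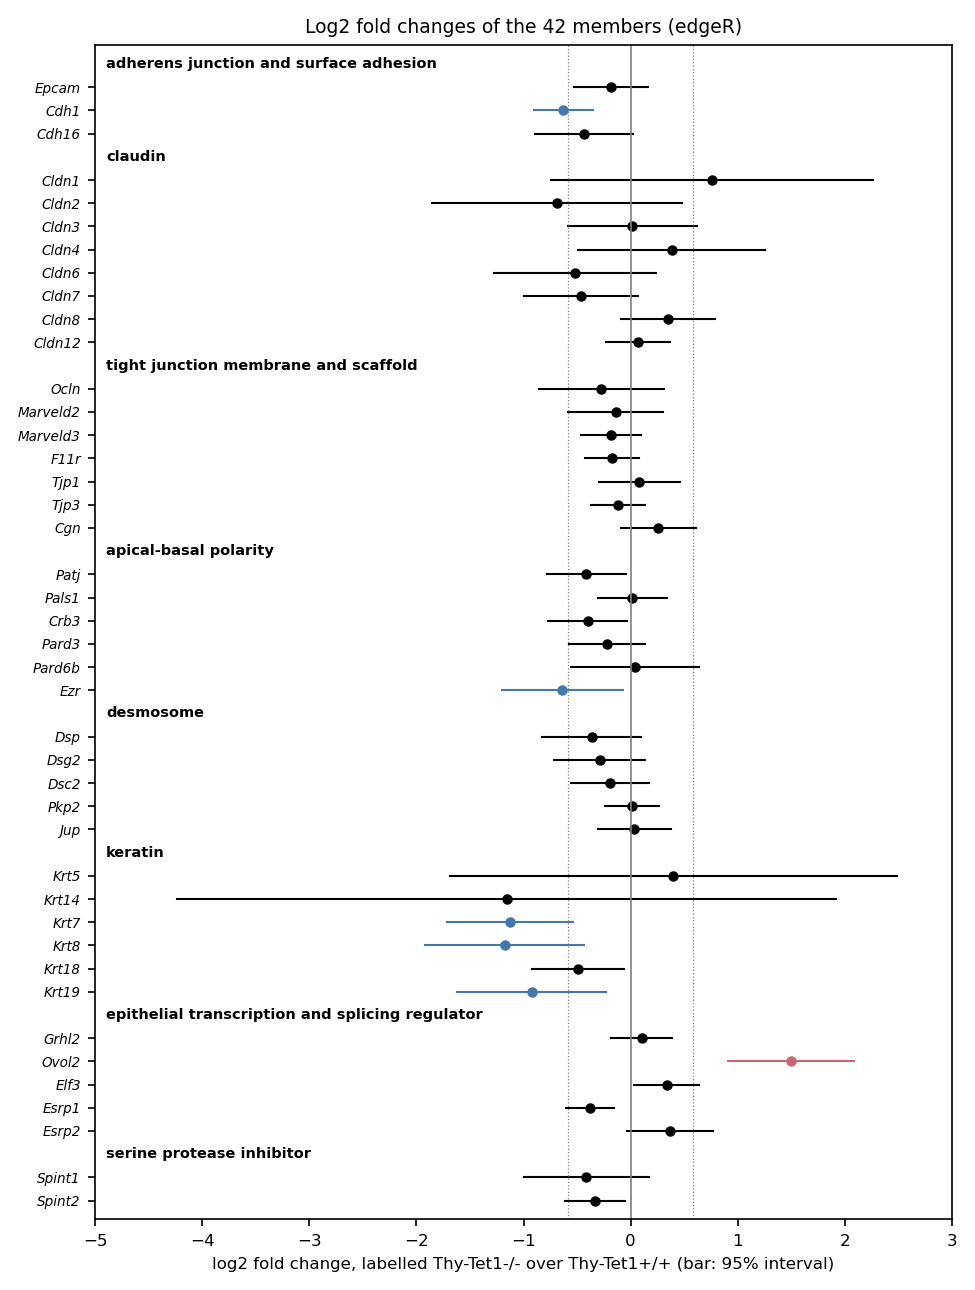
Log2 fold change of each of the 42 genes (points, libraries labelled Thy-Tet1-/- over Thy-Tet1+/+, edgeR) with its 95% interval (bars), arranged by role, with dotted lines at the 1.5-fold limit on either side. Blue marks the 5 genes past the limits that were lower and red the 1 that was higher, and the widest bars belong to Krt14 and Krt5.

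Of the 6 keratins, *Krt7*, *Krt8* and *Krt19* were past the limits (50%, beside 9.20% of all tested genes) and *Krt18*, *Krt5* and *Krt14* were not. Keratin 8 is the type II and keratin 18 the type I chain that pair into the filaments of simple epithelia. *Krt8* stood at 379, 766 and 379 CPM in the control libraries and at 199, 205 and 269.6 CPM in the libraries labelled *Thy-Tet1*-/-. Every control library lay above every other library, and control replicate 2 stood well above the rest. The means were 508 ± 224 and 225 ± 38.9 CPM (SD, n = 3 each), a log2 fold change of -1.18 ± 0.31 (SE), with an adjusted p of 0.130 in edgeR and from 0.00319 (DESeq2) to 0.368 over the alternatives. Without control replicate 2 the log2 fold change was -0.75 and *Krt8* was still past the limits.

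*Krt7*, a second type II keratin, found in glandular and ductal epithelia, stood at 131, 207 and 154 CPM in controls and at 74.4, 95.7 and 55.2 CPM in the other group. The groups did not overlap, and the mean fell from 164 ± 38.7 to 75.1 ± 20.2 CPM (SD, n = 3 each), a log2 fold change of -1.13 ± 0.25 (SE) with an edgeR adjusted p of 0.104. *Krt19*, a small type I keratin, stood at 91.4, 205 and 121 CPM in controls and at 68.7, 67.8 and 83.9 CPM in the other group. These values did not overlap, but the lowest control and the highest of the others lay close together. The log2 fold change was -0.92 ± 0.29 (SE; edgeR adjusted p = 0.174), and -0.53, short of the fold limit, without control replicate 2. *Krt19* also missed the p limit without replicate 1 or 2 of the libraries labelled *Thy-Tet1*-/- (unadjusted p = 0.0511 and 0.0520).

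*Krt18* moved less than its partner *Krt8*. It stood at 270.3, 309 and 225 CPM in controls and at 173, 169 and 231 CPM in the other group, where replicate 3 lay above the lowest control. Its log2 fold change of -0.49 ± 0.18 (SE; edgeR adjusted p = 0.219) was short of the fold limit. Without that replicate 3 it was -0.66, and without control replicate 3 it was -0.60, both past the limits. Within each library, *Krt8* had 1.40, 2.48 and 1.68 counts per count of *Krt18* in controls and 1.15, 1.22 and 1.17 in the other group. This ratio, which no scaling of libraries can alter, was lower in each library labelled *Thy-Tet1*-/- than in any control. Counts of the other simple keratins per count of *Krt18* overlapped, at 0.486, 0.670 and 0.681 in controls and 0.431, 0.567 and 0.239 in the other group for *Krt7* to *Krt18*, and at 0.338, 0.664 and 0.537 against 0.398, 0.402 and 0.363 for *Krt19* to *Krt18*. Per kilobase of transcript, the type II chains *Krt7* and *Krt8* together stood at 0.917, 1.28 and 0.988 of the type I chains *Krt18* and *Krt19* in controls and at 0.732, 0.800 and 0.706 of them in the other group, again without overlap. These ratios were chosen after the values were seen and are given as a description.

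*Krt5* and *Krt14*, the pair of basal stratified epithelium, did not follow the simple keratins and varied widely among libraries of the same group. *Krt5* stood at 13.1, 18.7 and 2.77 CPM in controls and at 3.54, 11.3 and 30.5 CPM in the other group, with a log2 fold change of 0.40 and a 95% interval from -1.69 to 2.49. *Krt14* stood at 2.14, 9.14 and 0.111 CPM in controls and at 0.436, 1.13 and 3.56 CPM in the other group. Its lowest value rested on 2 counts, under the floor of 3 counts, and the value of 0.436 CPM on 8 counts. The fitted log2 fold change was -1.16, with an interval from -4.24 to 1.92. Both had edgeR adjusted p-values over 0.6 (0.851 and 0.677), and leaving out single libraries turned the sign of each.

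**Figure D2:**
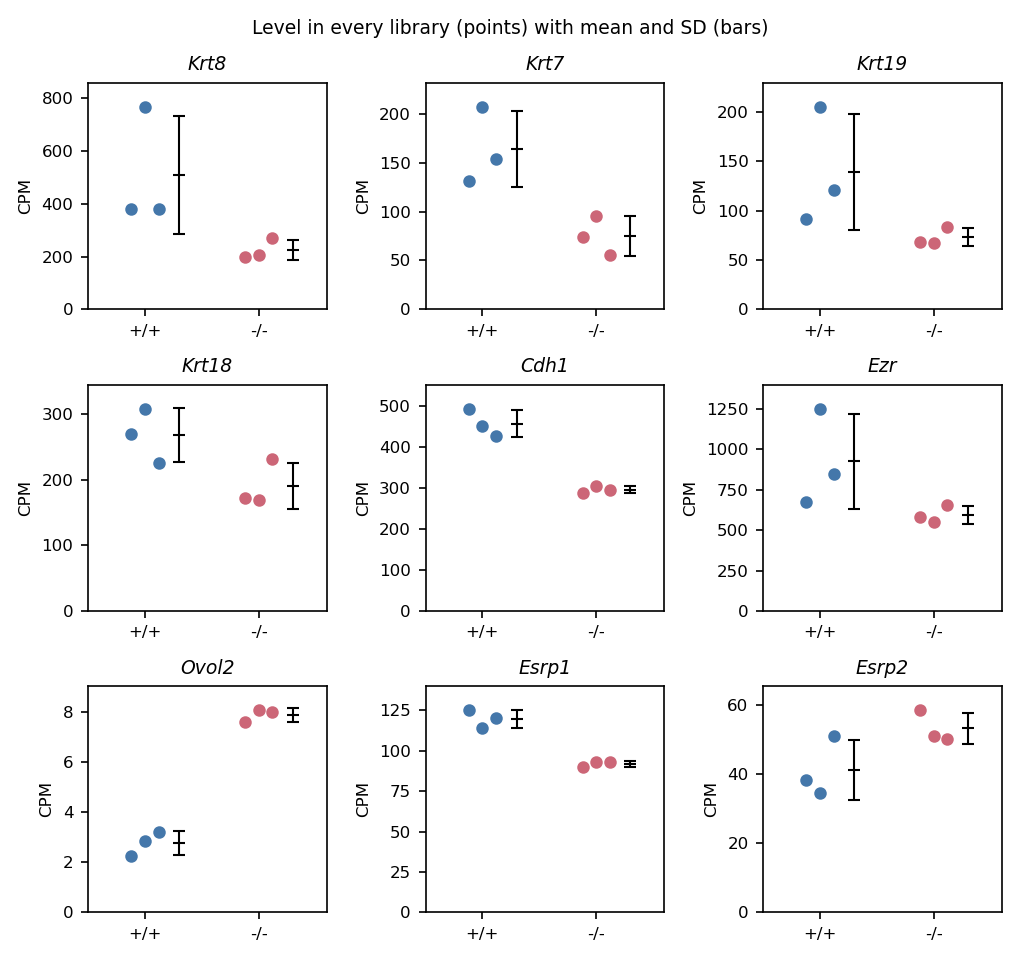
CPM of 9 genes in each library (points, blue for Thy-Tet1+/+ and red for libraries labelled Thy-Tet1-/-, axes from 0), with the mean and SD of each group (bars, n = 3). Krt8, Krt7, Krt19, Cdh1, Ezr and Esrp1 lie lower and Ovol2 higher without overlap, and Krt18 and Esrp2 overlap. Control replicate 2 is the highest point for Krt8, Krt7, Krt19, Krt18 and Ezr.

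*Krt7*, *Krt8* and *Krt18* lie within the keratin gene cluster region of chromosome 15, and *Krt8* and *Krt18* are neighbours there with opposite strands. The bases upstream of these 3 genes are shown because *Krt7* and *Krt8* were the keratins with the lowest log2 fold changes in the libraries labelled *Thy-Tet1*-/- apart from the scattered *Krt14*, and *Krt18* encodes the partner chain of *Krt8*. Windows of 250 bases before a RefSeq transcription start on GRCm38.p6 were at hand for 30 of the 42 genes, and not for *Cdh1*, *Cdh16*, *Cldn8*, *Marveld3*, *Pals1*, *Dsg2*, *Dsc2*, *Pkp2*, *Krt19*, *Grhl2*, *Esrp1* and *Esrp2*. GENCODE M21 starts some transcripts further upstream, so that 140 bases of the *Krt8* window, 36 of the *Krt18* window and 1 of the *Krt7* window are untranslated exon there, and these bases are left out below. The *Krt7* window also lies wholly within the GENCODE span of the gene, because other transcripts of *Krt7* begin before it. Capitals mark the E-box CAGGTG, read on either strand (CACCTG on the other), the core that zinc-finger repressors of the SNAI and ZEB families are known to bind. The sequences read 5′ to 3′ on the strand of the gene, for *Krt7* at chr15:101412153-101412401 (plus strand), *Krt8* at chr15:102004483-102004592 (minus) and *Krt18* at chr15:102027966-102028179 (plus).
Krt7: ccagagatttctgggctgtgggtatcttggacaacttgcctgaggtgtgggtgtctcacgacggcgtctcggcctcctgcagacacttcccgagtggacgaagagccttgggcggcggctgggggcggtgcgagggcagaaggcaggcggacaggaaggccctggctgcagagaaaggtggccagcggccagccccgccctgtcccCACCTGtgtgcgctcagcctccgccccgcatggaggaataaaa
Krt8: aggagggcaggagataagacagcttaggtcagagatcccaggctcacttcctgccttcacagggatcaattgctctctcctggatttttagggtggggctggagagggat
Krt18: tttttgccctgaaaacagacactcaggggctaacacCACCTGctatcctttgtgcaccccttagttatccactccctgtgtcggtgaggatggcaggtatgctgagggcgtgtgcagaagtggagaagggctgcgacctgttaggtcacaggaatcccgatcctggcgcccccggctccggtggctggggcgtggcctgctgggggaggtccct
In the full windows *Krt7*, *Krt8* and *Krt18* held 1 E-box each, whose first base lay 44, 111 and 214 bases before the RefSeq start. The E-box of *Krt8* falls in the exon bases that are not shown. Over the 30 genes with a window, 17 (56.7%) held the E-box, against 19.4% of the promoters of all 27025 genes, in windows of which a part can likewise lie inside annotated transcripts. The 17 included genes with small log2 fold changes, such as *Epcam* (-0.18) and *Tjp3* (-0.12), and the window of *Ezr*, which was lower, held none. The window of *Ovol2* also held none, and it lies wholly within an untranslated exon of a longer GENCODE transcript. The grainyhead motif AACCGGTT, its own reverse complement, was in 0 of the 30 windows and in 0.137% of all promoters. These matches describe letters only, and occupancy was not measured.

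Of the 3 genes of adherens junctions and surface adhesion, *Cdh1* was past the limits. *Cdh1* encodes E-cadherin, the adhesion receptor of adherens junctions (GRCm38 chr8:106603351-106670246). It stood at 492, 451 and 426 CPM in controls and at 286, 304 and 295 CPM in the other group. The values within each group were close together and the groups lay far apart. The means were 456 ± 33.6 and 295 ± 9.15 CPM (SD, n = 3 each), a log2 fold change of -0.63 ± 0.12 (SE), with an adjusted p of 0.0908 in edgeR and from 3.82e-07 (DESeq2) to 0.349 over the alternatives. This change lay just past the fold limit and -0.57, just short of it, without control replicate 1, with an unadjusted p of 0.00178. Scaling by library totals alone also left it short, at -0.44, in a scaling that moved the median of all genes by 0.19.

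*Epcam*, a surface adhesion protein of epithelial cells, stood at 413, 491 and 504 CPM in controls and at 410.1, 461 and 371 CPM in the other group. The groups overlapped and the log2 fold change was -0.18, with a 95% interval from -0.52 to 0.16. *Cdh16*, a cadherin of kidney and thyroid epithelium, stood at 457, 491 and 500.5 CPM in controls and at 409.8, 399 and 261 CPM in the other group. It did not overlap but was short of the limits, with a log2 fold change of -0.44 ± 0.19 (SE; edgeR adjusted p = 0.280). Set against *Epcam* in the same library, *Cdh1* had 1.19, 0.919 and 0.844 counts per count in controls and 0.698, 0.660 and 0.796 in the other group, which did not overlap. Set against β-catenin (*Ctnnb1*), which binds its cytoplasmic tail, *Cdh1* had 1.13, 1.04 and 0.949 counts per count in controls and 0.741, 0.739 and 0.801 in the other group. Both ratios were chosen after the values were seen. Of 11 ratios computed over the 42 genes, 5 did not overlap and 6 did, the latter including *Krt18*, *Ezr*, *Cdh16* and *Cgn* set against *Epcam*.

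**Figure D3:**
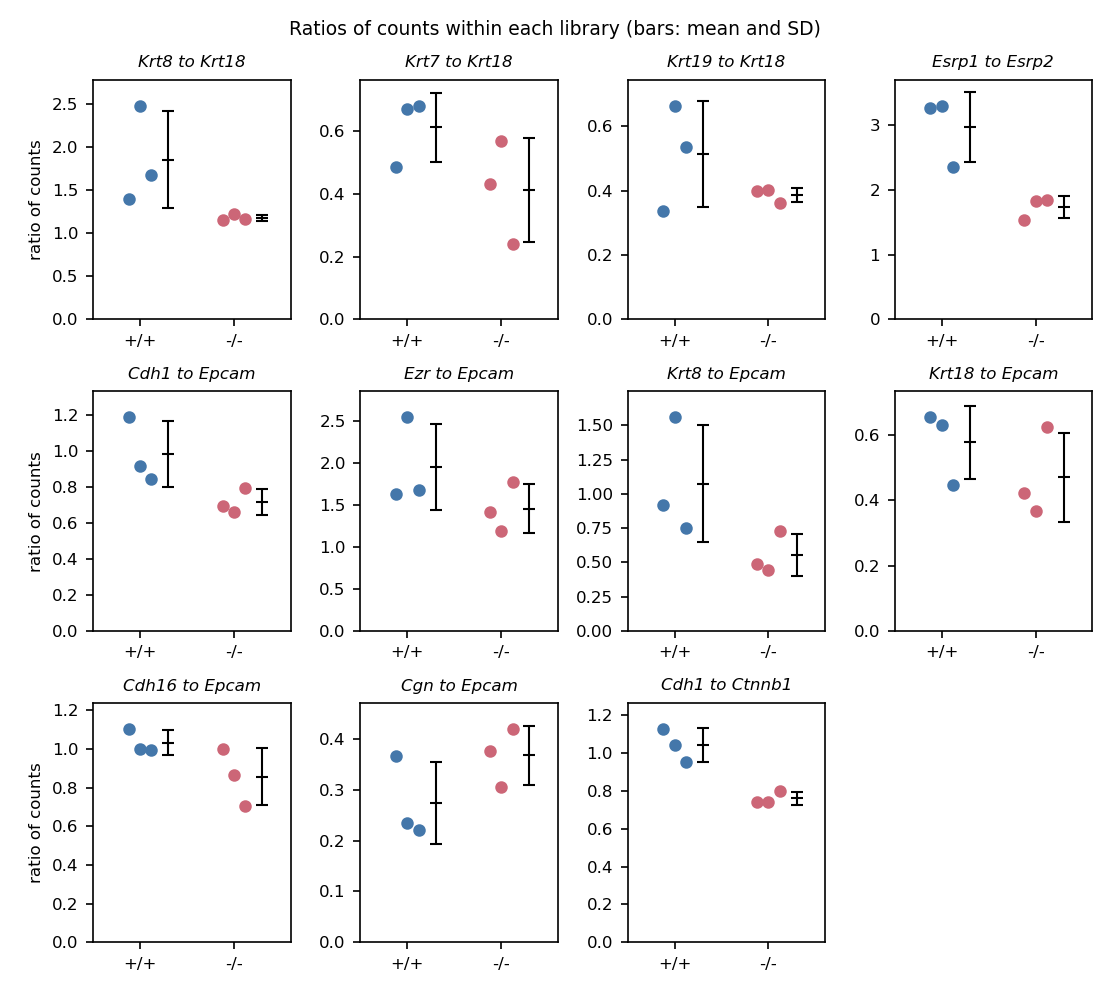
Ratios of the counts of pairs of genes within each library (points, blue for Thy-Tet1+/+ and red for libraries labelled Thy-Tet1-/-, axes from 0), with the mean and SD of each group (bars, n = 3). Of the 11 ratios computed, 5 lie below every control library in the libraries labelled Thy-Tet1-/- (Krt8 to Krt18, Krt8 to Epcam, Cdh1 to Epcam, Cdh1 to Ctnnb1 and Esrp1 to Esrp2), and the other 6 overlap.

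Among the polarity genes, *Ezr* was past the limits and the others were not. *Ezr* encodes ezrin, which links the plasma membrane of microvilli to actin. It stood at 674, 1251 and 849 CPM in controls and at 579.9, 547 and 657 CPM in the other group, so that the lowest control and the highest of the others were separated by little. Its log2 fold change was -0.64 ± 0.24 (SE; edgeR adjusted p = 0.221), and -0.36, short of the limits, without control replicate 2. It also missed the p limit when any 1 of the libraries labelled *Thy-Tet1*-/- was left out (unadjusted p = 0.0843, 0.0980 and 0.0511 without replicates 1, 2 and 3), and was short of the limits in 9 of the 17 alternative analyses in all. *Patj*, a scaffold of the Crumbs complex, stood at 159, 126 and 110.1 CPM in controls and at 91.5, 100.5 and 105 CPM in the other group, a log2 fold change of -0.41 ± 0.16 (SE; edgeR adjusted p = 0.225) without overlap. *Crb3*, the transmembrane Crumbs protein of that complex, stood at 39.9, 52.3 and 58.0 CPM in controls and at 38.1, 40.0 and 35.7 CPM in the other group, with an overlap of control replicate 1 and a log2 fold change of -0.40. *Pals1*, which joins these proteins, differed by 0.02 on the log2 scale, with an interval from -0.30 to 0.34. *Pard3* and *Pard6b*, of the partner PAR complex, differed by -0.22 and 0.04 and overlapped.

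None of the 8 claudins was past the limits, had an unadjusted p under 0.05 or had groups without overlap. The shares of all tested genes were 9.20%, 18.9% and 26.8%, and with 8 genes the difference from these was not tested. *Cldn3*, the highest of them per kilobase, stood at 109.9, 231 and 178 CPM in controls and at 173, 171 and 181 CPM in the other group. The control libraries spread on either side of the others, and the log2 fold change was 0.02, with an interval from -0.59 to 0.62. *Cldn7*, *Cldn4*, *Cldn8*, *Cldn6* and *Cldn12* followed, with mean control levels from 26.2 CPM (*Cldn12*) to 88.1 CPM (*Cldn7*). *Cldn7* had the lowest adjusted p of the 8 (0.317 in edgeR), with 60.4, 89.3 and 115 CPM in controls and 68.3, 61.9 and 61.4 CPM in the other group, a log2 fold change of -0.47. It was past the limits, at -0.68, when control replicate 1 was left out. *Cldn6* had a log2 fold change of -0.52, and of -0.80, past the limits, without control replicate 3. *Cldn4* differed by 0.38, with an interval from -0.49 to 1.25, and by 0.81, past the limits, without control replicate 2. *Cldn8* differed by 0.35. *Cldn1* and *Cldn2* were low, between 0.721 and 5.84 CPM in every library, and their intervals of -0.74 to 2.27 and -1.85 to 0.48 show how little can be said of them.

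The 7 other tight junction genes also held none past the limits, beside 9.20% of all tested genes. Their log2 fold changes lay between -0.27 and 0.26. Occludin (*Ocln*) and its relative tricellulin (*Marveld2*) span the membrane of the junction. *Ocln* stood at 49.9, 69.9 and 35.2 CPM in controls and at 39.5, 40.6 and 48.3 CPM in the other group, which overlapped. *F11r*, the junctional adhesion molecule A, was the 1 gene without overlap (14.3%, beside 26.8% of all tested genes). It stood at 171, 159 and 145 CPM in controls and at 142, 143 and 137 CPM in the other group. That amounted to a log2 fold change of -0.17, with an interval from -0.43 to 0.08. The scaffold genes went in either direction, *Cgn* (cingulin) by 0.26, *Tjp1* (ZO-1) by 0.08 and *Tjp3* (ZO-3) by -0.12, all with overlap. *Marveld2* and *Marveld3* differed by -0.14 and -0.18.

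The 5 desmosome genes overlapped between the groups without exception, where 26.8% of all tested genes did not overlap. Their edgeR adjusted p-values ran from 0.367 to 0.956. *Jup* encodes plakoglobin, the highest of them per kilobase, at 128, 161 and 135 CPM in controls and at 136, 165 and 133 CPM in the other group. Desmoplakin (*Dsp*), which anchors keratin filaments to the desmosome, stood at 457, 419.5 and 334 CPM in controls and at 252, 311 and 378 CPM in the other group, a log2 fold change of -0.36 with an interval from -0.83 to 0.10. The desmosomal cadherins *Dsg2* and *Dsc2* differed by -0.29 and -0.19, and plakophilin 2 (*Pkp2*) by 0.02 with an interval from -0.24 to 0.27.

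Of the 5 regulators of epithelial genes, 4 had log2 fold changes above 0 and *Ovol2* was past the limits. *Ovol2* encodes a zinc-finger transcription factor of epithelial cells (GRCm38 chr2:144305175-144332146). It stood at 2.25, 2.83 and 3.22 CPM in controls and at 7.57, 8.06 and 7.98 CPM in the other group. The groups lay far apart relative to their spread, at a low level that was still well above the floor of 3 counts. The means were 2.77 ± 0.485 and 7.87 ± 0.260 CPM (SD, n = 3 each), a log2 fold change of 1.50 ± 0.25 (SE), with an adjusted p of 0.0805 in edgeR and from 4.94e-05 (DESeq2) to 0.312 over the alternatives. It stayed between 1.37 and 1.68 in all 17 alternative analyses. An exon of *Ovol2* overlaps an opposite-strand transcript, *1700108N11Rik*, over 359 bases, and this transcript had no row of its own among the counts.

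*Elf3*, an ETS factor of epithelial cells, stood at 52.7, 64.4 and 56.5 CPM in controls and at 80.4, 65.6 and 73.3 CPM in the other group. It did not overlap but was short of the fold limit, at a log2 fold change of 0.34 ± 0.13 (SE; edgeR adjusted p = 0.224). *Grhl2*, a grainyhead factor that activates junction genes, differed by 0.10 with an interval from -0.18 to 0.39. *Esrp1* and *Esrp2* encode the related splicing regulators that set epithelial isoforms. *Esrp1* stood at 125, 114 and 119.8 CPM in controls and at 89.8, 93.2 and 92.7 CPM in the other group, whose values were all below the controls by more than the spread within either group. Its log2 fold change was -0.38 ± 0.09 (SE), short of the fold limit, with an adjusted p of 0.118 in edgeR and from 0.00524 (DESeq2) to 0.411 over the alternatives. *Esrp2* stood at 38.2, 34.4 and 51.0 CPM in controls and at 58.4, 51.1 and 50.2 CPM in the other group, which overlapped, with a log2 fold change of 0.37. The ratio of *Esrp1* to *Esrp2* counts within a library was 3.27, 3.30 and 2.35 in controls and 1.54, 1.82 and 1.85 in the other group, without overlap. This pair was also chosen after its values were seen.

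The protease inhibitors *Spint1* and *Spint2* (HAI-1 and HAI-2) restrain matriptase at the epithelial surface. *Spint2* stood at 547, 486 and 511 CPM in controls and at 423, 419.6 and 384 CPM in the other group, which did not overlap. Its log2 fold change of -0.33 ± 0.12 (SE) was short of the fold limit, with an adjusted p of 0.205 in edgeR and from 0.0277 (DESeq2) to 0.546 over the alternatives. *Spint1* differed by -0.41 and overlapped, with 74.2 CPM in control replicate 1 and 135 and 124 CPM in the other control libraries, against 75.0, 101 and 74.3 CPM. Without control replicate 1 its log2 fold change was -0.64, past the limits.

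Levels were compared between genes per kilobase of the longest annotated transcript, without a test. In controls *Ezr* was highest, at 292 ± 93.5 CPM per kb (SD, n = 3), ahead of *Krt8* at 259 ± 114, *Epcam* at 230 ± 24.0 and *Krt18* at 187 ± 28.9. The SDs of these 4 overlapped, and *Cdh16* (165 ± 7.91), *Spint2* (158 ± 9.55), *Cldn3* (137 ± 48.1) and *Cdh1* (103 ± 7.58) followed. In the libraries labelled *Thy-Tet1*-/- the order began with *Epcam* at 203 ± 22.2 CPM per kb, *Ezr* at 188 ± 17.8 and *Cldn3* at 139 ± 4.02. *Krt8*, at 115 ± 19.9, took rank 7 of 42 in place of rank 2, and *Krt7* took rank 25 in place of rank 16, while *Cdh1* held rank 8. The lowest genes in controls were *Cldn1*, *Cldn2*, *Ovol2* and *Krt14*, all under 2.5 CPM per kb.

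**Figure D4:**
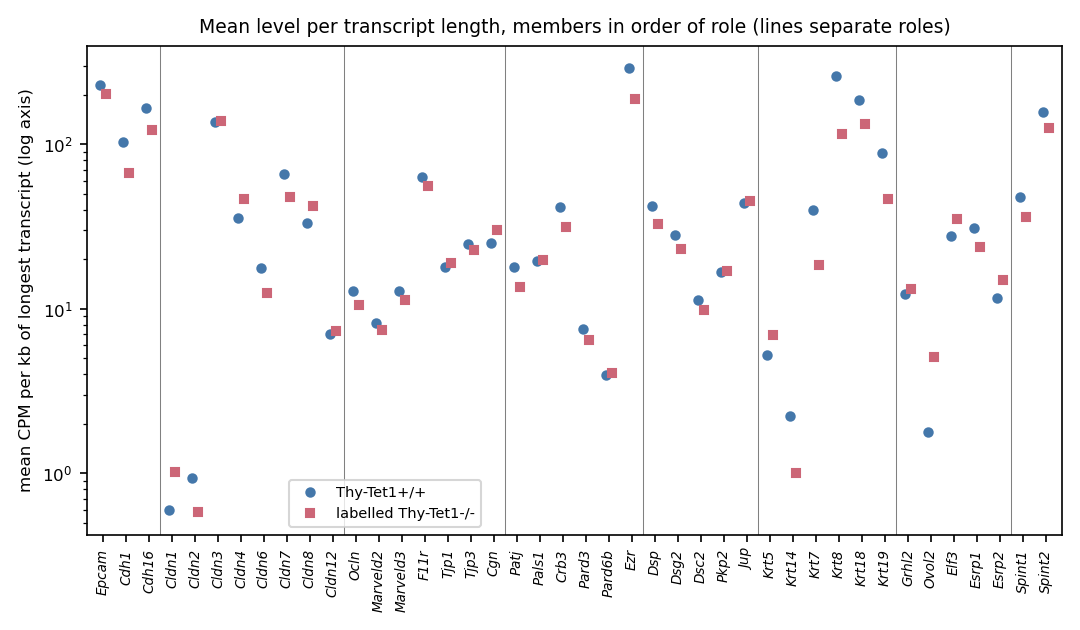
Mean level of each of the 42 genes per kilobase of its longest transcript (log axis), with blue circles for Thy-Tet1+/+ and red squares for libraries labelled Thy-Tet1-/- (n = 3 each), in order of role. Most pairs of symbols nearly coincide, Krt7, Krt8 and Krt19 are separated downwards and Ovol2 upwards.

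Of 66 further junction, polarity and epithelial genes, 59 passed the filter, with a median log2 fold change of -0.12, 17 above 0 and 42 below. By the limits 1 was higher and 2 were lower (5.08% in all, beside 9.20% of all genes). *Myo5b*, a motor that carries vesicles to the apical membrane, stood at 111, 150.4 and 177 CPM in controls and at 72.7, 67.8 and 64.3 CPM in the other group, a log2 fold change of -1.10 ± 0.18 (SE; edgeR adjusted p = 0.0805). Vinculin (*Vcl*), which couples junctions to actin, stood at 87.7, 172 and 112 CPM in controls and at 73.6, 77.1 and 73.9 CPM in the other group, a log2 fold change of -0.73 that was -0.42 without control replicate 2 and missed the p limit without replicate 1 or 3 of the other group (unadjusted p = 0.0531 and 0.0538). *Grhl1*, a desmosome-activating relative of *Grhl2*, stood at 14.5, 10.9 and 19.0 CPM in controls and at 26.9, 20.4 and 27.2 CPM in the other group, a log2 fold change of 0.75. *Grhl1* was at 0.56, short of the fold limit, without control replicate 2, and missed the p limit without replicate 1 of the libraries labelled *Thy-Tet1*-/- (unadjusted p = 0.0550). The catenins that bind E-cadherin were lower without overlap but short of the fold limit, α-catenin (*Ctnna1*) by 0.48, p120 (*Ctnnd1*) by 0.25 and *Ctnnb1* by 0.18 on the log2 scale. None of the 3 had an edgeR adjusted p under 0.05. In DESeq2 the adjusted p was 0.00187 for *Ctnna1*, 0.201 for *Ctnnd1* and 0.295 for *Ctnnb1*.

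A list of 10 genes of the mesenchymal side included repressors of E-cadherin and also the endothelial junction genes *Cdh5* and *Cldn5*. Of these 10, 2 were higher (20%, beside 5.54% of all tested genes) and 1 was lower (10%, beside 3.66%) by the limits. *Snai1* stood at 1.19, 1.07 and 1.61 CPM in controls and at 2.78, 2.37 and 2.59 CPM in the other group, a log2 fold change of 0.99 ± 0.34 (SE; edgeR adjusted p = 0.193). *Snai2* stood at 2.49, 1.76 and 1.66 CPM in controls and at 3.76, 3.55 and 3.10 CPM in the other group, a log2 fold change of 0.82 ± 0.32 (SE; edgeR adjusted p = 0.232). Both were low, between 1.07 and 3.76 CPM, and neither was past the p limit in every analysis with a library left out. Each was short of the limits in 7 of the 17 alternative analyses, among them the replicate block and both tissue scores. *Zeb2* differed by 0.58, just under the fold limit, and *Zeb1* by 0.14. Fibronectin (*Fn1*) was lower by the limits, at 107, 161 and 143 CPM in controls and 80.4, 87.3 and 76.0 CPM in the other group, and N-cadherin (*Cdh2*) and vimentin (*Vim*) overlapped, with log2 fold changes of 0.13 and -0.17.

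Other epithelia and tissues were present in unequal amounts in these glands. The summed level of 6 thymic epithelial markers was 29.4, 8.18 and 11.2 CPM in controls and 7.46, 6.34 and 274 CPM in the other group, and that of 8 thymocyte markers was 549.7 CPM in replicate 3 of the libraries labelled *Thy-Tet1*-/-, 130 CPM in control replicate 1 and between 8.18 and 18.0 CPM in the rest. That replicate 3 also had the highest *Krt5* and, alone, 34.8 CPM of *Krt4* and 35.9 CPM of *Krt13*, keratins of stratified epithelium that stood at no more than 5.51 and 0.474 CPM elsewhere. Without it *Krt5* had a log2 fold change of -0.65. The simple keratins were as low or lower in replicates 1 and 2 of the libraries labelled *Thy-Tet1*-/-, except *Krt7*, where replicate 3 was lowest. Without both control replicate 1 and replicate 3 of the other group, an analysis added after the data had been seen, *Krt7*, *Krt8*, *Krt19* and *Ovol2* were still past the limits and *Cdh1* was at -0.57.

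Control replicate 2 was the library with the highest *Krt7*, *Krt8*, *Krt18*, *Krt19* and *Ezr*. Its summed airway epithelial markers were also the highest, at 265 CPM, nearly all of it *Bpifa1* at 257 CPM. The sums were 60.4 and 7.71 CPM in the other controls and 112, 75.8 and 124 CPM in the other group. The cilia regulator *Foxj1* was between 0.999 and 2.51 CPM in all 6 libraries. Of the 5 airway markers tested, 4 had log2 fold changes above 0 and 1 below. By the limits 1 was higher (20%, beside 5.54% of all tested genes). Groups did not overlap for 2, both higher (40%, beside 12.5%). Control replicate 2 also had the highest macrophage markers (449.5 CPM against 115 to 250.5 CPM in the other 5 libraries) and the lowest parathyroid markers (169.5 CPM against 1901 to 13666 CPM). Skeletal muscle markers summed to between 40.8 and 7386 CPM and overlapped, and adipocyte markers to 160 to 547 CPM in controls and 378 to 1773 CPM in the other group. All 8 adipocyte markers had log2 fold changes above 0, and 3 were higher by the limits (37.5%, beside 5.54% of all tested genes). All 10 muscle markers had log2 fold changes below 0, with 0 past the limits. The summed level of the 12 follicular cell markers, almost all of it *Tg*, was lower in every library labelled *Thy-Tet1*-/- than in any control. Their mean log2 CPM, in which *Tg* counts as 1 gene of 12, was 7.51, 7.48 and 7.47 in controls. It was 7.34, 7.34 and 7.15 in the other group, again without overlap. Of the 11 tested, 6 had log2 fold changes above 0 and 5 below. By the limits 1 was higher (9.09%, beside 5.54% of all tested genes) and 2 were lower (18.2%, beside 3.66%). The changes ran from -2.16 to 0.65, and the lowest edgeR adjusted p was 0.0466. The part of these tissues in the keratin, *Cdh1* and *Ezr* differences was not tested, beyond the result that *Krt7*, *Krt8*, *Krt19*, *Cdh1* and *Ovol2* kept their direction and their place past the limits with a skeletal muscle or a parathyroid score in the fit, whereas *Ezr* with the parathyroid score was at -0.41 and past neither limit (unadjusted p = 0.0819).

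**Figure D5:**
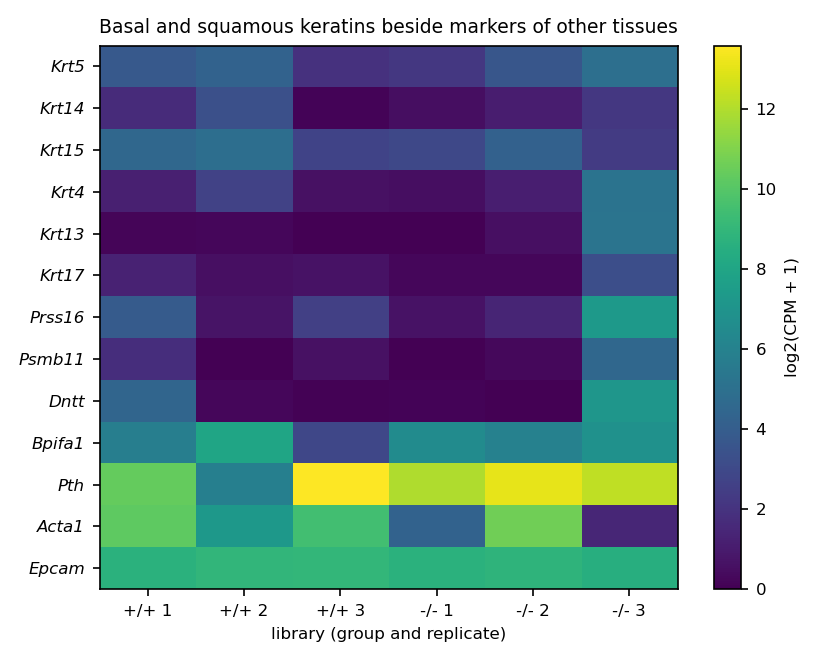
Level of 6 basal or squamous keratins, markers of thymus (Prss16, Psmb11, Dntt), airway (Bpifa1), parathyroid (Pth) and skeletal muscle (Acta1), and Epcam in each library, as log2(CPM + 1) on a colour scale. Replicate 3 of the libraries labelled Thy-Tet1-/- stands out for Krt4, Krt13 and the thymus markers, control replicate 2 for low Pth and high Bpifa1, and Epcam is nearly even.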

How the data were processed

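Libraries were prepared from whole thyroid glands of 3 *Thy-Tet1*+/+ and 3 *Thy-Tet1*-/- mice, assigned to groups by their labels. The authors deposited a table of 21878 genes with raw read counts, unnormalized integers. The submitters' processing notes name the build mm10. The aligner and counting program are not given in the sources used here. Of the table, 4100 genes had no count in any library, 27 symbols turned into dates were restored from their gene identifiers, and 0 further columns of values per library were found.

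The main test used edgeR 4.0.16 under R 4.3.3 (filterByExpr, TMM scaling, quasi-likelihood test, Benjamini-Hochberg adjustment) over 14143 genes, with a biological coefficient of variation of 0.327. CPM used TMM-scaled totals. Intervals are 95% intervals of the fit. Transcript lengths and overlaps came from GENCODE M21 on GRCm38, and promoters from RefSeq. The code was tested on simulated data. Replicates of a group differed by more than sampling noise. The labels number the mice 1 to 3 but do not say that numbers mark a shared litter or batch, and p-values measure the spread between these samples.

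The 42 genes, the other gene lists and the tests were chosen with earlier results of these data known. The text gives all 42 genes. Library values are given for those past the limits or without overlap, the highest of each role per kilobase and the keratins. Of the other junction genes and the mesenchymal genes, those past the limits are given. Genes past the limits are not listed for the marker lists of cell types and tissues. Such genes were found among the follicular cell, C cell, adipocyte, airway, endothelium, macrophage and fibroblast markers. The catenins, *Cldn7*, *Ocln*, *Dsp*, *Crb3*, *Esrp2*, *Spint1*, *Zeb1*, *Zeb2*, *Cdh2*, *Vim*, *Krt4*, *Krt13*, *Bpifa1* and *Foxj1* were named after their values were seen. The alternatives were RLE size factors, library totals with and without *Tg*, DESeq2 1.42.0, limma-voom 3.58.1, no filter, at least 10 counts in every library, the replicate number as a block, skeletal muscle and parathyroid scores as covariates, and each library left out in turn. Leaving out *Thy-Tet1*+/+ replicate 1 together with *Thy-Tet1*-/- replicate 3 was an alternative chosen after seeing the data.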

Additional observations from a re-analysis of the deposited data

How the results depend on the processing

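Over 17 alternative analyses, 28 of the 42 genes kept the sign of their log2 fold change in every one, and none of the 6 genes past the limits changed sign. Library totals alone moved the median of all genes by 0.19, and library totals without *Tg* by 0.10. With library totals alone the median of the 42 genes was -0.0042, 3 of them and 1 of the other junction genes were lower by the limits, and *Marveld2* (0.041), *Marveld3* (0.0072), *F11r* (0.011) and *Tjp3* (0.068) turned positive. Without *Tg* in the totals, 3 of the 42 were lower by the limits. DESeq2 gave 7 adjusted p-values under 0.05 among the 42 where edgeR gave none. Without a filter on low counts 2 other junction genes were higher by the limits. A skeletal muscle score left 0 of these and turned *Cldn3* (-0.11), *Pals1* (-4.1e-05), *Pard6b* (-0.20) and *Krt5* (-0.13). A parathyroid score gave 2 of the 42 and 2 other junction genes higher and 1 other junction gene lower, and turned *Ocln* (0.048), *Marveld2* (0.041) and *Krt14* (1.30). The causes were not tested.

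With 1 library left out, or the pair named above, 1 to 2 of the 42 were higher and 3 to 7 lower by the limits, and 0 to 2 and 1 to 4 of the other junction genes. Groups did not overlap for 15 to 27 of the 42, with 35.7% to 47.6% beside 31.8% to 40.9% of all tested genes where 1 library was left out, and 64.3% beside 53.8% without the pair. The ranges of log2 fold changes that crossed 0 were -0.25 to 0.28 for *Cldn3*, -0.0023 to 0.81 for *Cldn4*, -0.49 to 0.011 for *Ocln*, -0.26 to 0.056 for *Marveld2*, -0.024 to 0.25 for *Tjp1*, -0.090 to 0.098 for *Pals1*, -0.28 to 0.27 for *Pard6b*, -0.039 to 0.083 for *Pkp2*, -0.077 to 0.14 for *Jup*, -0.65 to 0.96 for *Krt5* and -2.57 to 0.70 for *Krt14*. Same-numbered samples of the 2 groups did not deviate together, with correlations of -0.37 to -0.17. With the replicate number as a block, 1 of the 42 was higher and 4 lower by the limits, *Ezr* being lost, and 6 rather than 12 had an unadjusted p under 0.05. Depth limits genes of few counts, such as *Cldn1*, *Cldn2* and *Krt14*.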
